A study of Sus scrofa with 6 samples.

Results

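Claudins and their tight junction partners were examined in pig pgEpiSC and pEF, whose total RNA was depleted of rRNA and sequenced with strand information. The genes were taken by symbol from the deposited expression table, and 8 of the 9 sought were present among 20131 genes: CLDN4, CLDN6, CLDN7, CLDN10, CLDN11, OCLN, TJP1 and F11R. CLDN3 matched no row by symbol and was not analysed here. The pgEpiSC are pig pre-gastrulation epiblast stem cells whose source is embryonic epiblast at embryonic day 10 (4 libraries), and the pEF are porcine embryonic fibroblasts of fetuses at embryonic day 30 (2 libraries). The groups therefore differ in cell type and in stage together, and these cannot be told apart. The labels give neither breed nor passage, nor which pgEpiSC line each library came from. Nor do they say that the libraries of a group came from separate cultures, so p-values rest on the spread between these libraries, which may be technical. Those of limma also draw on the spread of other genes.

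Tight junctions seal the space between neighbouring epithelial cells near their apical border and keep apical and basolateral membrane proteins apart. Claudins are membrane proteins that polymerize into the strands of the junction, and the claudins a cell makes set which ions pass between cells. Occludin, encoded by OCLN, and JAM-A, encoded by F11R, are further membrane proteins of the junction, and ZO-1, encoded by TJP1, is the cytoplasmic scaffold that binds their tails and links them to actin. The epiblast is an epithelium before gastrulation, whereas fibroblasts are mesenchymal cells that lack continuous tight junctions.

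Values are TPM, a share of all transcripts that is already divided by transcript length, so levels of different genes can be set side by side. Summed over all rows, libraries held between 157288 and 320206 TPM in pgEpiSC, against 93556 and 145611 TPM in pEF. Median-ratio scaling divides each library by its median ratio to the geometric mean of the libraries, over genes above 0 in every library. These factors ran between 0.697 and 2.15 in pgEpiSC and were 0.569 and 0.944 in pEF. Differences of the 8 genes are therefore given both as deposited and after that scaling, and those of other genes as deposited unless stated. The depth of a single library is unknown here. Markers matched the labelled identities: all 8 pgEpiSC markers found, of 12 sought, averaged at least 1 TPM in pgEpiSC and 0 did in pEF. POU5F1, SOX2, SALL4 and TDGF1 were not found by symbol. All 11 fibroblast markers found averaged at least 1 TPM in pEF, where they summed to 859 and 1873 TPM against 4.16 to 13.1 TPM in pgEpiSC. Of these 11, 3 also averaged at least 1 TPM in pgEpiSC, COL1A2, COL5A2 and POSTN, at 1.17, 1.31 and 1.55 TPM. In bulk RNA, fewer cells of a type and less RNA per cell cannot be told apart.

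Of the 5 claudins examined, CLDN6, CLDN7, CLDN4 and CLDN10 were higher in pgEpiSC and CLDN11 was not called. CLDN6, a claudin of embryonic epithelia, was the most abundant of them in both, at 153 ± 147.5 TPM in pgEpiSC (SD, n = 4) and 13.6 ± 8.04 TPM in pEF (SD, n = 2). CLDN7 and CLDN4 followed in pgEpiSC and were close to 0 in pEF, CLDN10 was listed at 0 in both pEF libraries, and CLDN11 averaged 1.61 ± 0.943 TPM in pgEpiSC and 1.63 ± 1.25 TPM in pEF. Of the 8 genes, 6 were called higher in pgEpiSC and 0 lower, by limma on log2(TPM + 1) with a threshold of 0.05 on the Benjamini-Hochberg adjusted p. The same call was made for 18.0% of the 10424 tested genes in the higher direction and for 9.43% in the lower. Of the 8, CLDN4, CLDN7, CLDN10 and OCLN passed the filter on low values through pgEpiSC alone, with both pEF libraries under 1 TPM, so they could differ in only 1 direction. Of the 1955 tested genes that passed in that way, 39.6% were called higher as deposited and 64.6% after scaling.

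**Figure D1:**
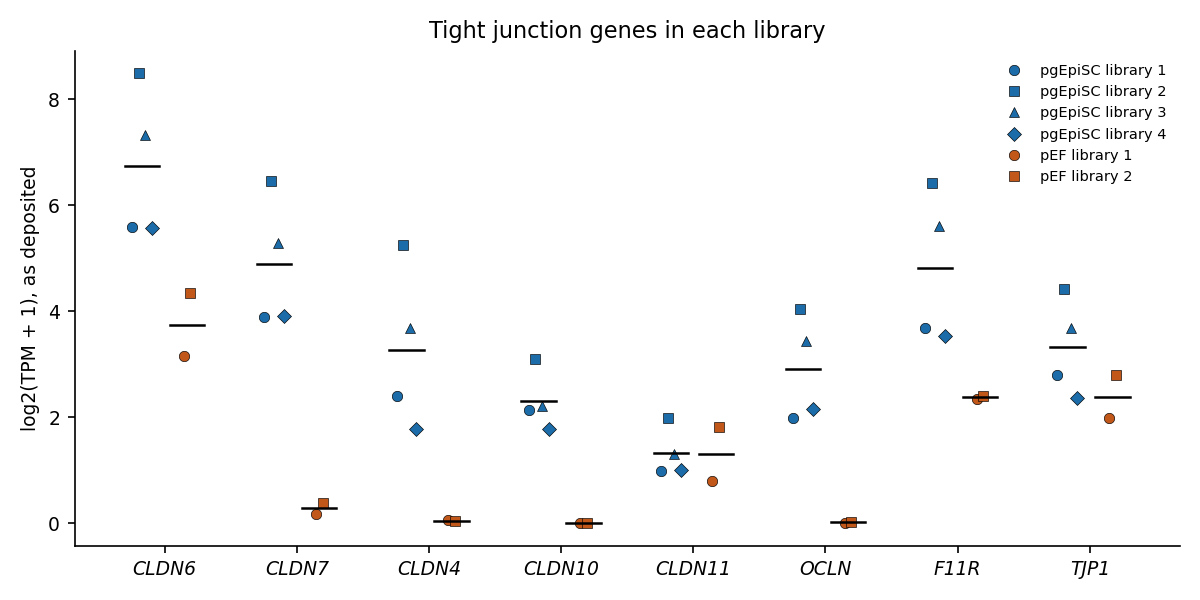
Level of each gene in every library, as log2(TPM + 1) of the deposited values; blue symbols are the 4 pgEpiSC libraries, orange symbols the 2 pEF libraries, and bars the group means. The groups do not overlap for CLDN6, CLDN7, CLDN4, CLDN10, OCLN and F11R, and overlap for CLDN11 and TJP1.

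CLDN6 was at 47.1, 359.6, 159 and 46.7 TPM in pgEpiSC libraries 1 to 4, against 7.92 and 19.3 TPM in pEF libraries 1 and 2. Every pgEpiSC library lay above both pEF libraries, and the pEF levels were not near 0: CLDN6 stood at the 91.7 and 94.9 percentile of all genes of those libraries, against 98.0 to 99.4 in pgEpiSC. Its log2(TPM + 1) difference was 2.996 ± 0.57 (SE, limma adjusted p = 8.99e-05) as deposited and 2.38 ± 0.43 (adjusted p = 0.00184) after scaling.

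CLDN7, which associates with the adhesion molecule EPCAM at the basolateral membrane, was at 13.8, 87.6, 37.9 and 14.0 TPM in pgEpiSC libraries 1 to 4, whereas pEF libraries 1 and 2 had 0.133 and 0.302 TPM. The groups were far apart, and the highest pEF library stayed below 1 TPM. The difference of 4.61 ± 0.59 (limma adjusted p = 7.52e-08) was the largest of the 8 genes, and it was 4.33 ± 0.31 (adjusted p = 1.43e-05) after scaling. CLDN7 alone among the 6 called genes kept its call under all 28 alternatives tried, with adjusted p up to 0.0168.

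CLDN4, a barrier-forming claudin of simple epithelia, was at 4.26, 37.1, 11.8 and 2.41 TPM in pgEpiSC libraries 1 to 4, whereas pEF had 0.0365 and 0.0262 TPM. It varied more than any other of the 8 genes among the pgEpiSC libraries, with library 2 at 15.4 times library 4 as deposited and 5.16 times after scaling. Even the lowest pgEpiSC library exceeded both pEF libraries, with a difference of 3.23 ± 0.65 (limma adjusted p = 0.000195) as deposited and 2.98 ± 0.47 (adjusted p = 0.000989) after scaling. CLDN3, which encodes a close relative, is the gene next to CLDN4 in the RefSeq annotation of Sscrofa11.1.

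CLDN10, whose splice forms make cation or anion pores in the kidney, was at 3.42, 7.56, 3.63 and 2.43 TPM in pgEpiSC and listed at 0 in both pEF libraries. No fold can be given against 0. On the log2(TPM + 1) scale the groups differed by 2.31 ± 0.53 (limma adjusted p = 0.000919), and by 2.14 ± 0.22 (adjusted p = 0.000105) after scaling.

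CLDN11, known from the tight junctions of oligodendrocyte myelin and of Sertoli cells in mouse, was at 0.973, 2.98, 1.46 and 1.01 TPM in pgEpiSC, whereas pEF had 0.739 and 2.51 TPM. The groups overlapped, and the difference was 0.01 ± 0.50 (limma adjusted p = 0.988) as deposited and -0.36 ± 0.21 (adjusted p = 0.166) after scaling. Without pEF replicate 1 and after scaling it was called lower, at -0.77 (adjusted p = 0.0223). Of the 4 oligodendrocyte markers found, 0 averaged 1 TPM in either cell type, and they summed to at most 1.94 TPM in pgEpiSC and 0.0654 TPM in pEF.

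Membrane partners and the scaffold differed in how far they moved. OCLN was at 2.96, 15.4, 9.80 and 3.44 TPM in pgEpiSC, against 0 and 0.0186 TPM in pEF. The gene was thus detected in every pgEpiSC library and was at or near 0 in both pEF libraries, with a difference of 2.89 ± 0.59 (limma adjusted p = 0.000232), or 2.68 ± 0.20 (adjusted p = 1.80e-05) after scaling. F11R was at 11.9, 84.8, 47.8 and 10.5 TPM in pgEpiSC libraries 1 to 4, whereas pEF had 4.10 and 4.31 TPM. Unlike OCLN it was plainly detected in both cell types, and it rose in pgEpiSC by 2.43 ± 0.60 (limma adjusted p = 0.00198) as deposited and by 1.85 ± 0.41 (adjusted p = 0.00527) after scaling.

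TJP1 was at 5.98, 20.6, 11.9 and 4.13 TPM in pgEpiSC libraries 1 to 4, against 2.94 and 5.97 TPM in pEF. pEF library 2 lay above pgEpiSC library 4, so the groups overlapped. Its difference, 0.93 ± 0.58 (limma adjusted p = 0.228) as deposited and 0.37 ± 0.23 (adjusted p = 0.189) after scaling, was not called. The ZO-1 scaffold gene was the second most abundant of the 8 in pEF by mean level, at 4.45 ± 2.15 TPM.

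**Figure D2:**
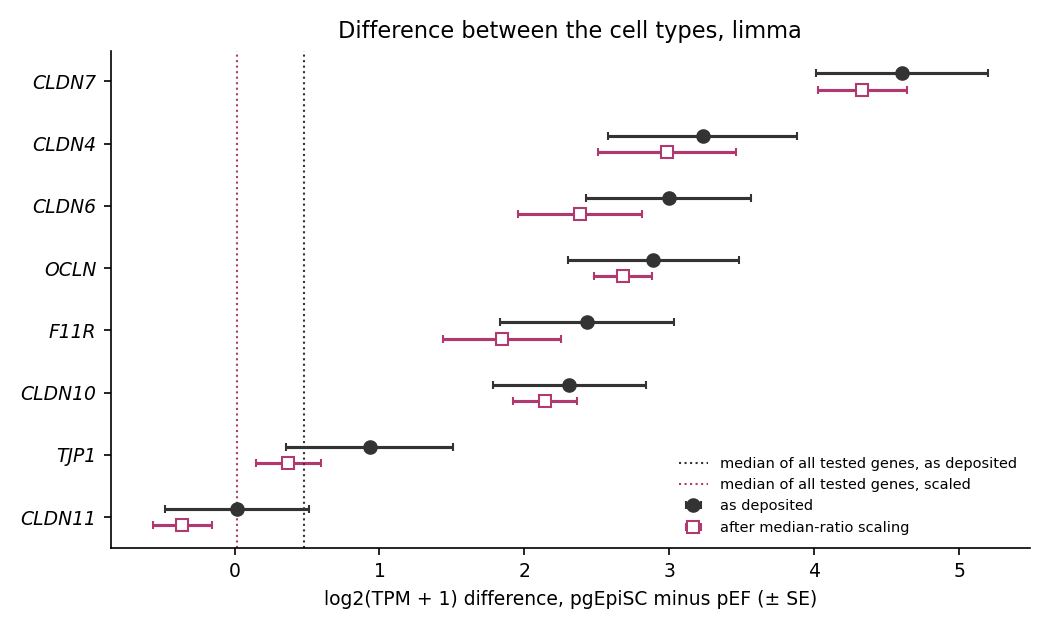
Difference between pgEpiSC and pEF in log2(TPM + 1) with its standard error from limma, as deposited (filled circles) and after median-ratio scaling (open squares). Dotted lines mark the median of all tested genes, 0.48 as deposited and 0.02 after scaling; CLDN7 has the largest difference, and those of TJP1 and CLDN11 are within 1 log2 unit of 0.

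The scaling lowered the median difference, though not by the same amount for each gene. For the 10424 tested genes the median was 0.48 as deposited and 0.02 after scaling, and for the 8 genes it was 2.66 and 2.26. After scaling, the 6 genes were again called higher and 0 lower, where 27.0% of all tested genes were called higher and 30.9% lower. Every pgEpiSC library exceeded every pEF library for 6 of the 8 genes both as deposited and after scaling, against 36.6% and 34.5% of all tested genes. Of those 6, CLDN4, CLDN7, CLDN10 and OCLN passed the filter through pgEpiSC alone, so as deposited only this direction was open to them. The share among all genes that passed in that way is not given here, so the 6 cannot be read as an excess.

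As deposited, and with the filter set on all 6 libraries, most calls were lost when either pEF library was left out. Without pEF replicate 1 only CLDN7 was still called as deposited, 1 of 8 where 2.42% of all genes were, and without pEF replicate 2 only CLDN6 and CLDN7, 2 of 8 where 5.66% were. The difference of CLDN6 was 2.40 (limma adjusted p = 0.141) without pEF replicate 1 and 3.59 (adjusted p = 0.0212) without pEF replicate 2, and the fit then takes the spread of pgEpiSC for the lone pEF library. The adjusted p-values that crossed the threshold were 0.0987 and 0.0826 for CLDN4, 0.102 and 0.0930 for CLDN10, 0.0776 and 0.0629 for OCLN and 0.168 and 0.131 for F11R, without pEF replicate 1 and 2 in turn. Their differences stayed close to those over all libraries, at 3.24 and 3.22 for CLDN4, 2.31 each time for CLDN10, 2.88 and 2.90 for OCLN and 2.40 and 2.46 for F11R. When the filter on low values was applied again to the remaining libraries, 5 of 8 were called in each case, all but CLDN10, where 3.63% and 8.16% of tested genes were. After scaling, 6 and 5 of 8 were called without pEF replicate 1 and 2, where 16.3% and 18.3% of all genes were, F11R being the one lost (1.54, adjusted p = 0.0647). With no filter 3 of 8 were called, where 4.15% of genes were, and CLDN4, CLDN6 and F11R were not (adjusted p = 0.0896, 0.0983 and 0.146).

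The order of levels differed between the cell types. In pgEpiSC the mean TPM ran from CLDN6 through F11R, CLDN7, CLDN4, TJP1, OCLN and CLDN10 to CLDN11, and in pEF from CLDN6 through TJP1, F11R, CLDN11, CLDN7, CLDN4 and OCLN to CLDN10. Within each pgEpiSC library CLDN6 exceeded F11R, CLDN7 exceeded CLDN4, TJP1 exceeded OCLN and CLDN10 exceeded CLDN11, in 4 of 4 libraries each. F11R and CLDN7, with means of 38.8 and 38.3 TPM, changed places between libraries, as did CLDN4 and TJP1, where CLDN4 was the higher in 1 of 4. In pEF, TJP1 and F11R changed places between the 2 libraries.

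The make-up of the claudin pool, taken as each gene's share of the TPM summed over the 17 claudins found by symbol, does not depend on how a library is scaled. CLDN2, CLDN3, CLDN5, CLDN12, CLDN20, CLDN24 and CLDN34 were not found by symbol, so the pool leaves them out and the shares could differ with them. That sum was 71.7, 507, 220 and 68.1 TPM in pgEpiSC and 16.1 and 26.4 TPM in pEF. CLDN6 made up 65.7, 70.9, 72.6 and 68.5% of it in pgEpiSC libraries 1 to 4, whereas its part was 49.3 and 73.2% in the pEF libraries. Its share was thus as large in 1 fibroblast library as in any pgEpiSC library, and the group difference of 8.20 percentage points had an exact two-sided permutation p of 0.4. The sign of this difference was not stable, at -3.79 points without pEF replicate 1 and -17.2 points when only the 5 claudins examined here formed the denominator, where the groups did not overlap (exact permutation p = 0.0667, the smallest possible).

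What distinguished the pools was the remainder. CLDN7 held 18.6 ± 1.61% of the claudin TPM in pgEpiSC and 0.986 ± 0.225% in pEF, and CLDN4 held 5.54 ± 1.56% in pgEpiSC and 0.163 ± 0.0903% in pEF. CLDN11 held 1.02 ± 0.463% in pgEpiSC and 7.06 ± 3.49% in pEF, so a gene whose TPM was not called different held a larger part of the fibroblast pool. For CLDN7, CLDN4 and CLDN11 all 4 pgEpiSC libraries lay on 1 side of both pEF libraries (exact permutation p = 0.0667 each, the smallest that 15 assignments allow, and 0.111 adjusted over the 5 claudins). CLDN10 held 2.87 ± 1.58% in pgEpiSC and is listed at 0 in pEF (exact permutation p = 0.133, 0.167 adjusted).

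**Figure D3:**
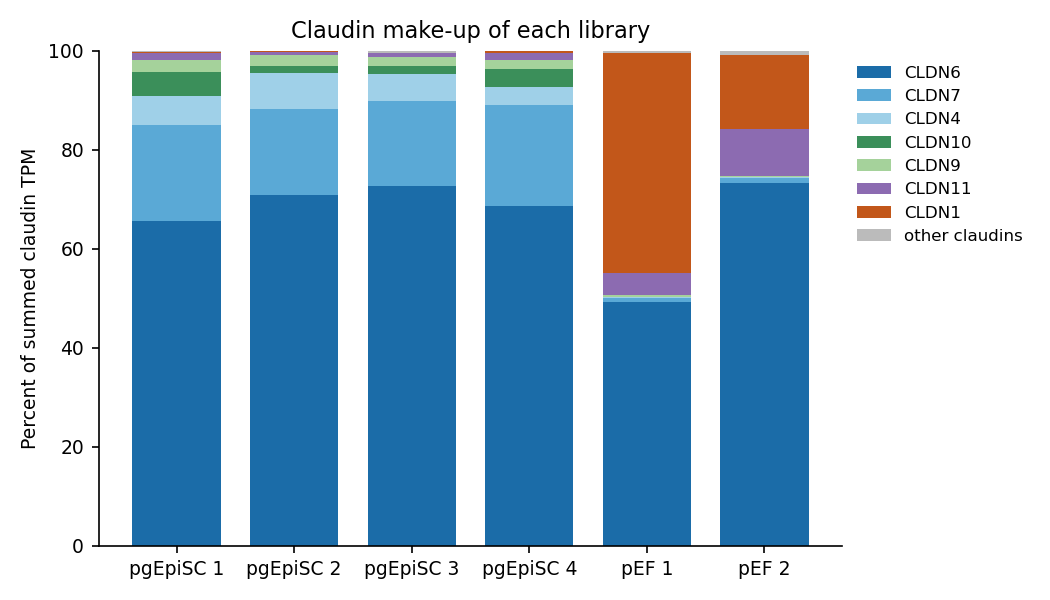
Share of each claudin in the summed TPM of the 17 claudins found by symbol, in percent, for each of the 4 pgEpiSC and 2 pEF libraries. CLDN6 fills 49.3% or more of every column, CLDN7 is the next largest part in every pgEpiSC library, and CLDN1 (44.5% and 15.01%) is the next largest in pEF.

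The fibroblast pool held a claudin that pgEpiSC nearly lacked. CLDN1, the main barrier claudin of the epidermis, was at 0.110, 0.525, 0.349 and 0.158 TPM in pgEpiSC, against 7.15 and 3.96 TPM in pEF, and fell in pgEpiSC by 2.32 on the log2(TPM + 1) scale (SE 0.45, limma adjusted p = 0.000102; -2.79 after scaling). It made up 0.162 ± 0.0527% of the claudin TPM in pgEpiSC and 44.5 and 15.01% in pEF libraries 1 and 2. The 3 stratified epithelium markers found, KRT15, TP63 and DSG3, summed to at most 0.211 TPM in pgEpiSC and 0.0193 TPM in pEF. CLDN1 passed the filter through pEF alone.

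CLDN9, a claudin of the inner ear, is the gene next to CLDN6 in the RefSeq annotation. It was at 1.85, 11.4, 4.11 and 1.31 TPM in pgEpiSC, whereas pEF had 0.0433 and 0.0479 TPM. The difference was 2.11 ± 0.56 (limma adjusted p = 0.00401) as deposited and 1.87 ± 0.29 (adjusted p = 0.000808) after scaling. As deposited, CLDN9 was no longer called without pEF replicate 1 or 2. It passed the filter through pgEpiSC alone, so only a higher call was possible. It came to between 2.58 and 3.92% of the CLDN6 level in pgEpiSC, against 0.547 and 0.248% in pEF. For how reads were shared between these related genes, no source used here gives a rule. The other 10 claudins found by symbol stayed under 1 TPM in every library, and CLDN16, CLDN17 and CLDN23 were listed at 0 in all 6.

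Genes beside the 8 in the RefSeq annotation of Sscrofa11.1 were looked up for the order of genes only. Of 16 neighbour positions, 11 held a gene found by symbol and 8 a tested one, of which 3 were called higher in pgEpiSC, 1 lower and 4 in neither direction, where 18.0% of all tested genes were higher and 9.43% lower. After scaling the counts were 4, 3 and 1, where 27.0% were higher and 30.9% lower: ELP5 beside CLDN7 was then called higher, and DZIP1 beside CLDN10 and SKIL beside CLDN11 lower. Besides CLDN9, MARVELD2, which encodes tricellulin and lies next to OCLN, was higher, at 1.56, 7.16, 3.57 and 1.65 TPM in pgEpiSC against 0 and 0.0239 TPM in pEF. SEH1L, a nucleoporin gene next to TJP1, was the third (1.78, limma adjusted p = 0.00931). TNFRSF12A, a receptor gene on the other side of CLDN6, was lower in pgEpiSC, at -1.71 (limma adjusted p = 0.0237) as deposited and -2.36 after scaling. Its groups overlapped as deposited, with pgEpiSC library 2 at 28.9 TPM and pEF library 1 at 26.6 TPM.

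The 4 pgEpiSC libraries differed among themselves, and more for some of the genes than for most. After median-ratio scaling CLDN4 was at 6.11, 17.2, 7.31 and 3.34 scaled TPM in libraries 1 to 4, CLDN6 at 67.6, 167, 98.9 and 64.7 and F11R at 17.1, 39.4, 29.6 and 14.6. Library 2 was the highest and library 4 the lowest for all 3. On the log2(scaled TPM + 1) scale library 2 exceeded library 4 by 2.07 for CLDN4, 1.37 for F11R, 1.36 for CLDN6 and 1.03 for CLDN7, by 0.65 for TJP1 and 0.50 for OCLN, and by 0.05 and -0.01 for CLDN10 and CLDN11, where the median of all tested genes was 0.03.

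**Figure D4:**
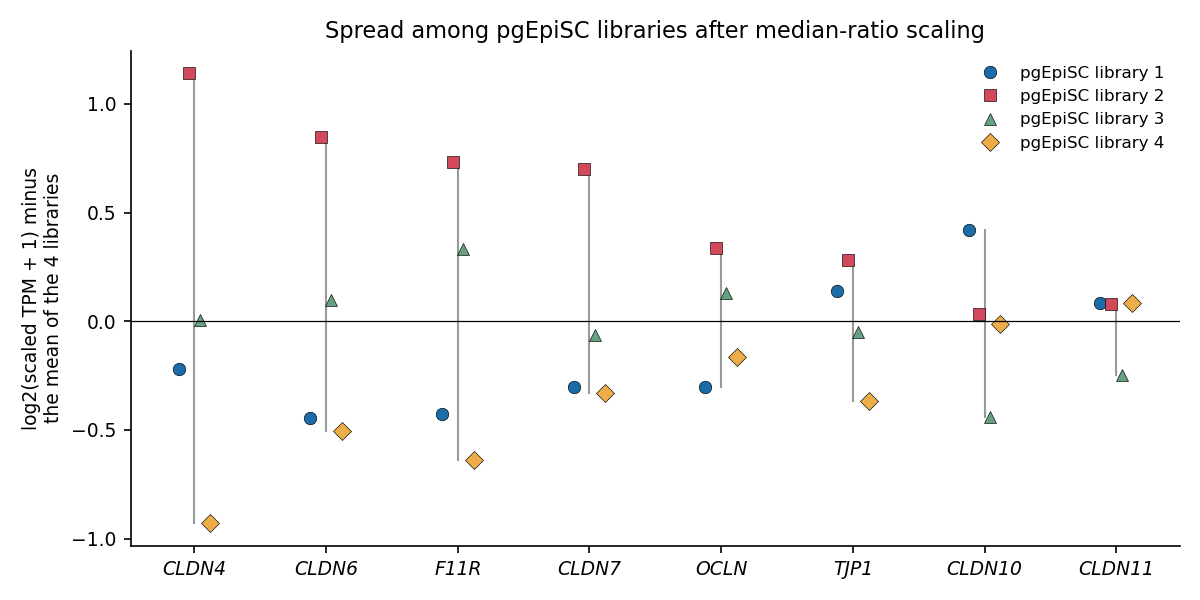
Deviation of each gene from its own mean over the 4 pgEpiSC libraries, in log2 units after median-ratio scaling; grey lines span the lowest and highest library. Library 2 is the highest for CLDN4, CLDN6, F11R, CLDN7, OCLN and TJP1, but not for CLDN10 or CLDN11.

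The SD of log2(scaled TPM + 1) over these 4 libraries was 0.86 for CLDN4, 0.64 for F11R, 0.63 for CLDN6 and 0.48 for CLDN7, against a median of 0.22 for all tested genes, and 0.16 for CLDN11. Marker sums moved with library too, and their part in the spread was not tested. Scaled pgEpiSC markers summed to 625, 792, 445 and 561 in libraries 1 to 4, fibroblast markers to 8.52, 3.72, 2.58 and 18.2 and trophectoderm markers to 155, 152, 69.1 and 75.2. All 10 trophectoderm markers were found, and 4 averaged at least 1 TPM in pgEpiSC as deposited and 0 did in pEF. These were KRT8 and KRT18, at 85.8 and 58.3 TPM in pgEpiSC, KRT7, at 4.56 TPM in pgEpiSC against 0.540 TPM in pEF, and TFAP2C, at 1.28 TPM in pgEpiSC against 0.0417 TPM in pEF. ELF5 averaged 0.0717 TPM in pgEpiSC, and CDX2, GATA2, GATA3, TFAP2A and HAND1 each averaged 0.0262 TPM or less there. Of 7 hypoblast markers found, FOXA2 and APOA1 averaged at least 1 TPM in pgEpiSC, at 2.72 and 6.97 TPM, and 0 of 4 endothelial markers did in either cell type.

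Of the other membrane proteins of the junction, CXADR, LSR, MARVELD2 and MARVELD3 were among those higher in pgEpiSC. Of 7 tested genes (10 found), 5 rose in pgEpiSC, 0 fell and 2 were not called, with a median difference of 1.81 against 0.48 for all tested genes, and after scaling the counts were 5, 1 and 1. Among all tested genes 18.0% rose and 9.43% fell as deposited, and 27.0% rose and 30.9% fell after scaling. Of the 7, 5 passed the filter through pgEpiSC alone, among them MARVELD2, MARVELD3 and LSR but not CXADR. Of all genes that passed in that way, 39.6% rose as deposited and 64.6% after scaling. CXADR, the coxsackievirus and adenovirus receptor, was at 27.8 ± 14.8 TPM in pgEpiSC and 1.10 ± 0.658 TPM in pEF, a difference of 3.67 ± 0.55 (limma adjusted p = 1.80e-06). LSR, which recruits tricellulin to the corners where cells meet, was at 10.4 ± 8.71 TPM in pgEpiSC against 0 and 0.0165 TPM in the pEF libraries. MARVELD2 and MARVELD3, of the occludin family, differed by 1.98 ± 0.51 and 1.81 ± 0.47 (adjusted p = 0.00328 and 0.00362), MARVELD3 being listed at 0 in both pEF libraries.

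Cytoplasmic plaque and polarity genes were less uniform. Of 24 tested (28 found), 8 rose in pgEpiSC, 1 fell and 15 were not called, with a median difference of 0.55, close to that of all tested genes. The shares of all tested genes were 18.0% higher and 9.43% lower. After scaling the counts were 11, 7 and 6, where 27.0% and 30.9% of all tested genes were called higher and lower. Of the 24, 6 passed the filter through pgEpiSC alone, PATJ and AFDN among them, and these could only be called higher. PATJ, a Crumbs complex scaffold, and AFDN, which ties nectins to actin, rose by 2.05 ± 0.58 and 1.84 ± 0.59 (adjusted p = 0.00678 and 0.0171). AMOTL2, an angiomotin family gene, was the 1 that fell, at 2.13 ± 1.60 TPM in pgEpiSC against 12.4 ± 8.01 TPM in pEF (-2.07 ± 0.58, adjusted p = 0.00658).

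**Figure D5:**
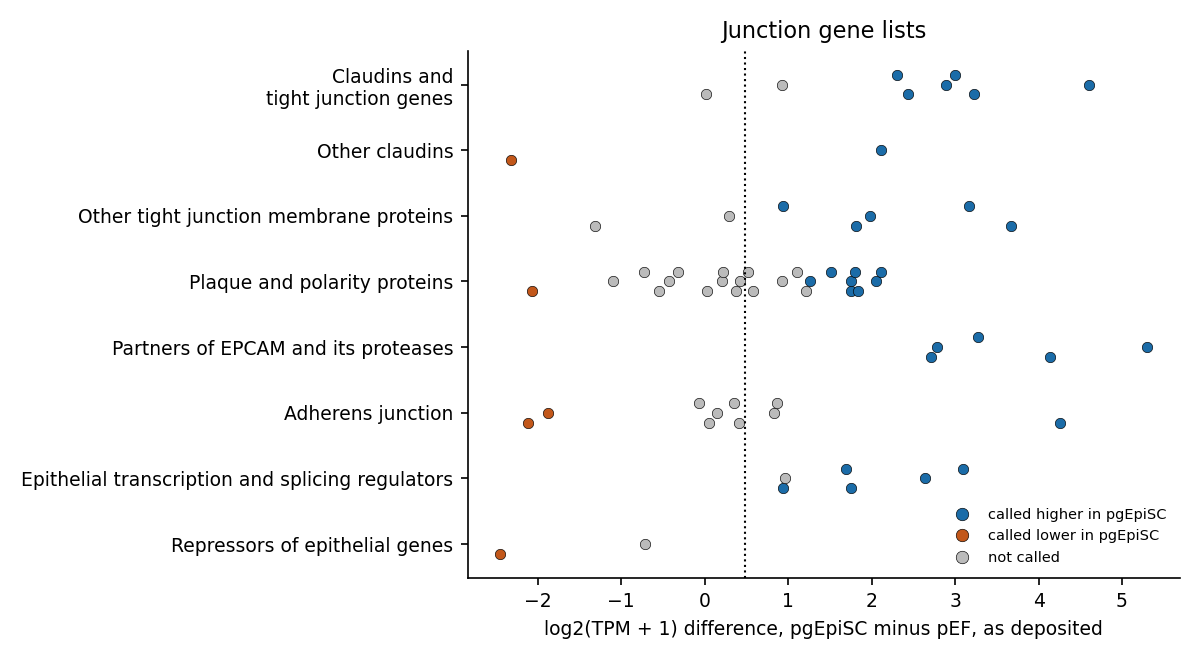
Difference of each tested junction gene between pgEpiSC and pEF in log2(TPM + 1) as deposited, 1 point per gene, by list; colour gives the limma call and the dotted line the median of all tested genes (0.48). The 5 tested partners of EPCAM and its proteases lie entirely to the right, whereas plaque and adherens junction genes spread on both sides of the line.

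Claudin-7 is stabilized by EPCAM, and the membrane protease matriptase (ST14) cleaves EPCAM under the restraint of SPINT1 and SPINT2. All 5 tested genes of that group rose in pgEpiSC (6 found), and all 5 passed the filter through pgEpiSC alone, where 39.6% of the genes that passed in that way rose. EPCAM was at 47.5 ± 34.3 TPM in pgEpiSC against 0.0118 ± 0.00156 TPM in pEF, and ST14 at 11.6 ± 10.9 TPM in pgEpiSC, with 0 listed in both pEF libraries. SPINT2 and SPINT1 differed by 4.14 ± 0.56 and 2.78 ± 0.59 (limma adjusted p = 2.64e-07 and 0.000391), SPINT1 being also listed at 0 in pEF.

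Among adherens junction genes 1 of 10 tested rose (11 found), 2 fell and 7 were not called, with a median difference of 0.25, where 18.0% of all tested genes rose and 9.43% fell. After scaling the counts were 3, 2 and 5, where 27.0% of all tested genes were called higher and 30.9% lower. CDH1, E-cadherin, was the one that rose, at 25.3 ± 21.8 TPM in pgEpiSC against 0.0210 ± 0.0184 TPM in pEF (4.26 ± 0.61, limma adjusted p = 8.51e-07), and it is 1 of 3 genes of the list that passed the filter through pgEpiSC alone. NECTIN3, an adhesion receptor, and VCL, the actin linker vinculin, fell, with differences of -2.11 and -1.88 (adjusted p = 0.00178 and 0.0148), although the libraries of VCL overlapped between the groups as deposited.

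Of 6 tested epithelial transcription and splicing regulators (9 found), 5 rose and 1 was not called, and after scaling all 6 were higher. All 6 passed the filter through pgEpiSC alone, where 39.6% of such genes rose as deposited and 64.6% after scaling. ESRP1 and ESRP2, epithelial splicing factors, differed by 3.09 ± 0.57 and 1.76 ± 0.48 (limma adjusted p = 6.21e-05 and 0.00550), and OVOL2 and GRHL2, transcription factors of epithelial identity, by 2.64 ± 0.59 and 1.70 ± 0.47 (adjusted p = 0.000741 and 0.00609), both listed at 0 in the 2 pEF libraries. Of the listed repressors of epithelial genes, 4 were found and 2 tested. ZEB1, a repressor of E-cadherin and other epithelial genes, was at 0.178, 0.116, 0.200 and 0.241 TPM in pgEpiSC against 3.44 and 8.41 TPM in pEF (-2.45 ± 0.44, adjusted p = 3.37e-05), having passed the filter through pEF alone, so that only a lower call was possible. TWIST2 was not called, at 6.60 ± 4.54 TPM in pgEpiSC and 9.42 ± 0.279 TPM in pEF.

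All 22 further genes chosen by rule were already called in these libraries, so kept calls are partly fixed by that choice. After scaling all 22 kept their call and direction, where 27.0% of all tested genes were called higher and 30.9% lower. As deposited, 8 were still called without pEF replicate 1 and 9 without pEF replicate 2, and CLDN1, CXADR, EPCAM, SPINT2, CDH1, ESRP1 and ZEB1 in both cases. LSR and ST14 were not called without pEF replicate 1, NECTIN3 without pEF replicate 2, AFDN also without pgEpiSC replicate 3, and the other 11 were not called when either pEF library was left out. With no filter 12 of the 22 were not called, and at a pseudocount of 5 CLDN9, MARVELD2, PATJ, AFDN, ESRP2 and GRHL2 were not.

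The genes whose profile over the 6 libraries was closest to that of CLDN6, by Euclidean distance between mean-centred log2(TPM + 1) values, were IGF2BP1, FASN and DSP, at distances of 0.571, 0.634 and 0.687. DSP, which encodes the desmosomal linker desmoplakin, was at 6.10, 39.4, 25.2 and 5.36 TPM in pgEpiSC, whereas pEF had 0.460 and 0.963 TPM. IGF2BP1, an RNA-binding protein, and FASN, fatty acid synthase, ran between 12.0 and 71.7 and between 6.09 and 51.2 TPM in pgEpiSC, against 1.66 and 3.32 TPM and 0.931 and 3.18 TPM in pEF. These profiles are unscaled, and the median-ratio factors too were highest in pgEpiSC library 2 and lowest in pEF library 1.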

How the data were processed

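The deposited file holds TPM values by the authors, with 1 column per library and 20132 rows. Per the submitters' processing notes STAR 2.6.0c and kallisto 0.44.0 were used; what each did, and with which build or annotation, is not given in the sources used here. Per the labels, libraries averaged 127.83 M reads raw and 126.01 M after quality filtering, and TPM keeps no depth of its own. Symbols came from a gene name table (69.8% of rows). Genes reaching 1 TPM in 2 or more libraries were fitted in limma 3.58.1 (R 4.3.3) on log2(TPM + 1), with group as the factor, a variance trend and Benjamini-Hochberg adjustment over 10424 genes. The fit draws the variance of each gene partly from other genes, as if genes were independent. Shifts of whole libraries are shared by genes, so limma p-values as deposited may be too small. Recovery of known changes was tested on simulated data without the shifts between whole libraries seen here, so that test does not cover them. Shares of claudin TPM were compared by exact permutation over the 15 assignments of libraries. Named were the genes examined, every claudin averaging 1 TPM in either group, and up to 4 called genes of each list by absolute difference, with up to 2 that moved against it. Of the genes so chosen, 1 is counted but not reported here. The genes, lists and rule were chosen with earlier results of these data known. Python 3.11.15, pandas 2.3.3, numpy 2.4.6 and matplotlib 3.10.9 were used. Alternatives were pseudocounts, filters, scalings, variance without a trend, a replicate block and each library left out; leaving out a library with the filter applied again was chosen after seeing the data.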

Additional observations from a re-analysis of the deposited data

Results flagged for a closer look

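TSTD1, a sulfurtransferase gene beside F11R in the RefSeq annotation, was at 9.09, 75.6, 9.16 and 6.15 TPM in pgEpiSC libraries 1 to 4, against 4.80 and 6.04 TPM in pEF. As deposited, library 2 stood apart from the other pgEpiSC libraries. Its gap to the nearest of them was 0.957 of the group's whole range, above Dixon's 95% critical value for 4 samples. That check used unscaled values. Library 2 also had the highest median-ratio factor, 2.15 against 0.697, 1.61 and 0.722 in libraries 1, 3 and 4, and no check after scaling is given here. TSTD1 was the only 1 flagged of 44 genes checked, and chance flags about 1 in 20. TSTD1 was not called (1.27, limma adjusted p = 0.126). The neighbouring genes were added to this outlier check after their values had been seen.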

How the results depend on the processing

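The 6 calls among the 8 genes were made under both pseudocounts, every scaling, variance without a trend, and without any single pgEpiSC library; 5 were made with a mean of at least 5 TPM, 3 with no filter, and between 1 and 6 when each library was left out in turn. With a replicate block, whose numbers are not stated to pair libraries (correlations of deviations 0.0982 and 0.172), 2204 genes were higher and 893 lower. Of the 8 genes 6 were then called, and all 22 further genes, which were chosen among called genes, kept their call. Only replicates 1 and 2 occur in both groups, so with the block pgEpiSC replicates 3 and 4 added nothing to the differences. The calls with the block therefore rest on fewer libraries. Genes higher in pgEpiSC, 1874 as reported, numbered 967 at a pseudocount of 5, 787 with no filter, 1185 with a mean of at least 5 TPM, 2812 after median-ratio scaling and 3676 after quantile normalization. Genes lower, 983 as reported, numbered 368 with that mean, 3222 after median-ratio scaling, 2624 after it with the block, 2924 after rescaling to 1000000 and 2726 after quantile normalization. Leaving out 1 library gave 252 (pEF replicate 1) to 2270 higher and 555 (pEF replicate 2) to 1367 lower (without pgEpiSC replicate 2), with 1057 higher without pgEpiSC replicate 3. With the filter applied again these were 1140 higher without pgEpiSC replicate 3, 360 higher and 288 lower without pEF replicate 1, and 799 and 194 without pEF replicate 2. After scaling, 2900 were higher without pgEpiSC replicate 2, and 2930, 3312, 3005 and 2998 lower without pgEpiSC replicates 1 to 4, and 2807 and 2737 without pEF replicates 1 and 2; of the 8 genes, 1 (CLDN11) was then lower without pEF replicate 1.

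The uncalled difference of CLDN11 changed sign, to -0.00155 at a pseudocount of 5, -0.36 after median-ratio scaling, -0.28 after it with the block, -0.66 after rescaling and -0.19 after quantile normalization. Without 1 library it ran between -0.49 and 0.52, and was -0.21 without pgEpiSC replicate 2 and -0.49 without pEF replicate 1 when the filter was applied again. After scaling it was -0.39, -0.36, -0.27 and -0.39 without pgEpiSC replicates 1 to 4, and -0.77 and -0.044 without pEF replicates 1 and 2. The CLDN6 share differed by -17.2 points with 5 claudins as the denominator and by -3.79 to 20.2 points without 1 library. The cause of these changes was not tested. With 2 pEF libraries, and depth unknown for each library, differences near the threshold cannot be resolved.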
